A study of Rattus norvegicus with 4 samples.

Results

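The methionine sulfoxide reductases repair oxidised methionine in proteins, and the thioredoxin system returns them to their reduced form. The genes described here were taken by exact gene symbol: the reductases Msra, Msrb1, Msrb2 and Msrb3, the thioredoxins Txn1 and Txn2, the thioredoxin reductases Txnrd1 and Txnrd2, sulfiredoxin Srxn1 and the thioredoxin inhibitor Txnip. Of these 10 symbols, 9 matched 1 gene each among the 22250 genes of the count files, and the footprints of Srxn1 were not analysed here. Ribosome footprints, the short mRNA fragments shielded by translating ribosomes, were sequenced from ventricular cardiomyocytes of Wistar rats aged 1 to 2 days, a primary culture made by trypsin digestion and a percoll gradient. The control group (2 libraries) received Control siRNA and the other group (2 libraries) CPEB4 siRNA, with 72 h given as the time of silencing. CPEB4 is an RNA-binding protein that regulates poly(A) tails and translation of its target mRNAs. The growth protocol shared by all 4 libraries also gives 250 nM Torin1, an mTOR inhibitor, for 24 h without saying which cells received it. The labels do not say whether replicates were separate cultures, so a p-value here reflects the spread among these libraries, whose origin may be technical.

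Methionine side chains are oxidised to a pair of mirror-image sulfoxides. MSRA reduces one form (S) and the MSRB enzymes the other (R). MSRB1 is a selenoprotein of the cytosol and nucleus, MSRB2 is mitochondrial, and MSRB3 is found in the endoplasmic reticulum and mitochondria. Thioredoxin supplies the electrons and is itself re-reduced by thioredoxin reductase with NADPH, one pair of proteins serving the cytosol (TXN1 and TXNRD1) and another the mitochondria (TXN2 and TXNRD2). In heart muscle the system is known for protecting mitochondria and for reversing the oxidation of signalling enzymes such as the calmodulin-dependent kinase CaMKII.

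Footprints counted in genes ranged from 3554011 to 5910911 per library. The libraries of a group correlated at r = 0.986 and 0.985 across genes on the log2 scale, and libraries of different groups at 0.979 to 0.981. The siRNA target had 351 and 253 footprints in the control libraries and 40 and 59 after Cpeb4 siRNA. Levels are given as CPM, footprints scaled to a common total of footprints in genes. They were not scaled by coding length, so each is compared between libraries. Sums and shares over several genes are likewise given only to set libraries side by side, and they do not rank genes. As the measurement covers bulk cultures and footprints alone, fewer cells, less mRNA per cell and fewer ribosomes per mRNA cannot be told apart.

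Of the 9 genes measured, Msrb3 had the largest absolute log2 fold change, and it was about 2-fold higher after Cpeb4 siRNA. Msrb3 had 59.5 and 71.5 CPM in the control libraries (349 and 254 footprints) and 141 and 135 CPM after Cpeb4 siRNA (690 and 798 footprints). Both siRNA libraries lay far above both controls, and the groups did not overlap. The means were 65.5 ± 8.45 CPM in controls and 138 ± 4.33 CPM after siRNA (SD, n = 2), and the fitted ratio was 2.08-fold with a 95% interval of 1.74 to 2.48. Its log2 fold change of 1.06 ± 0.12 (SE) ranked 45 from the top among 11335 genes tested. The gene set was selected on the footprint counts of this same contrast, with the Msrb3 rise already known. The Msrb3 values, with their interval and rank, are therefore a description, and no p is given.

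**Figure D1:**
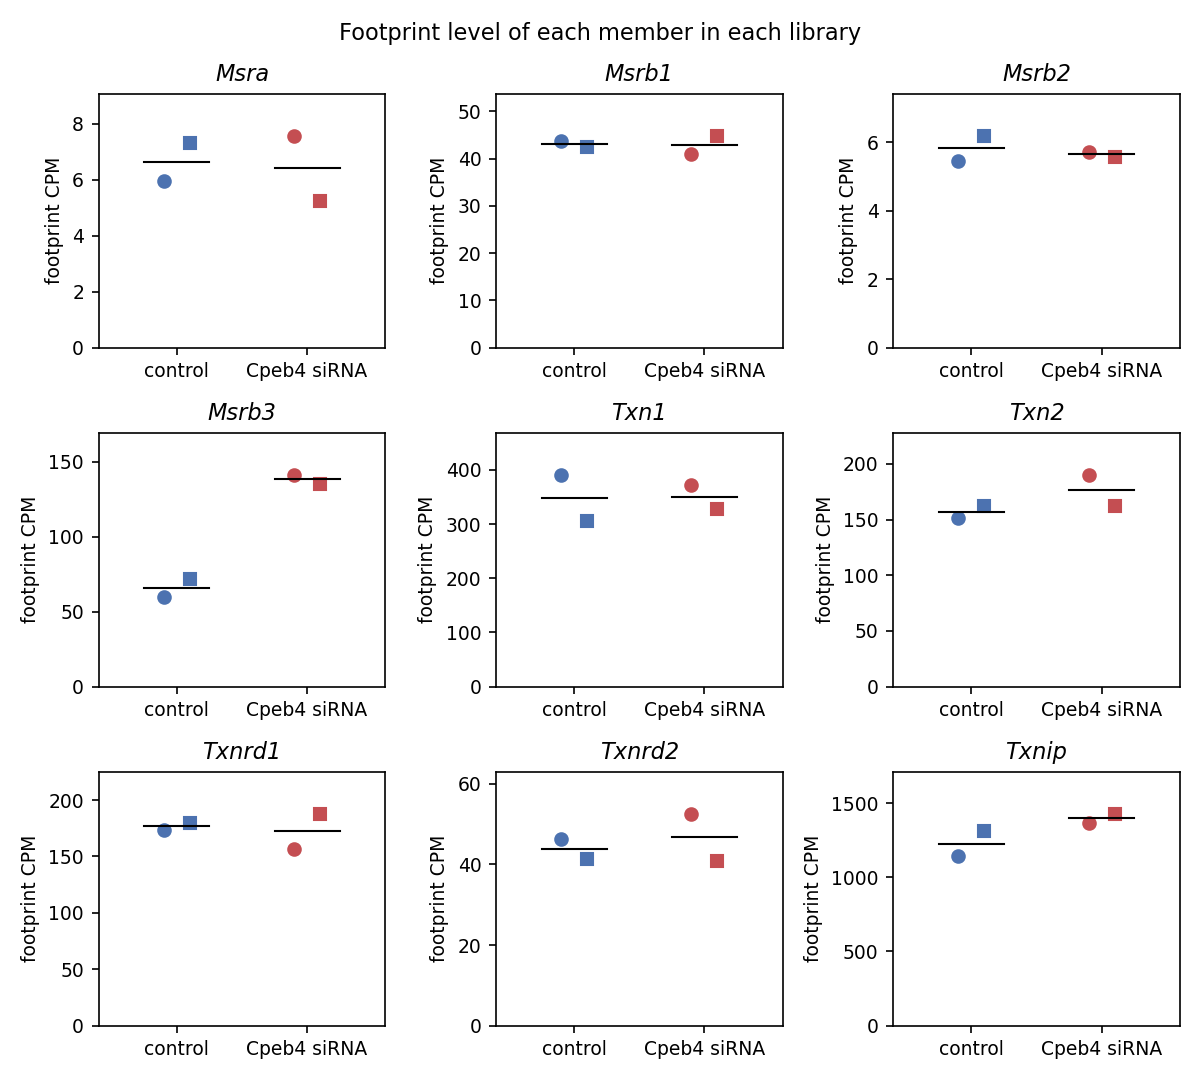
Footprint level of each of the 9 genes in each library, in CPM on axes that start at 0, with replicate 1 as a circle, replicate 2 as a square and the group mean as a line. The Msrb3 libraries separate at 59.5 and 71.5 CPM against 141 and 135 CPM, while those of the other genes lie close together or overlap.

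In the quasi-likelihood test of edgeR, 1 of 9 members passed an adjusted p of 0.05, with p-values adjusted over all genes tested. That test called 3.41% of all genes tested, 1.54% as higher and 1.87% as lower after siRNA. Because the choice of genes used the same contrast, nothing is read from this count. The median log2 fold change was -0.03 over the 9 members (0.002 when scaled to library totals alone) and 0.00 over all genes tested. For 8 of the 9, the absolute log2 fold change was below 0.17, the median absolute value over all genes. The edgeR adjusted p of these 8 genes ran from 0.483 for Txnip to 0.955 for Msrb2.

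None of the other reductases passed the threshold. Msrb1, the selenoprotein form, had 43.8 and 42.5 CPM in the controls and 40.9 and 44.8 CPM after siRNA. These groups overlapped, and the fitted ratio was 0.973 with a 95% interval of 0.800 to 1.18. The mitochondrial Msrb2 was sparse, with 32 and 22 footprints in the controls and 28 and 33 after siRNA. Its levels of 5.46 and 6.19 CPM against 5.73 and 5.58 CPM overlapped, and its interval ran from 0.607 to 1.52-fold. Msra, the enzyme for the S form, had 5.97 and 7.32 CPM in the controls and 7.57 and 5.25 CPM after siRNA. With 26 to 37 footprints per library, its interval ran from 0.603 to 1.5-fold, and a change inside these bounds was not detectable at this depth.

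The sum over the 4 reductase genes was 115 and 128 CPM in the controls and 195 and 191 CPM after siRNA, a ratio of group means of 1.59. Without Msrb3 the sum was 55.3 and 56.0 CPM in the controls and 54.2 and 55.7 CPM after siRNA, a ratio of 0.988. The increase of the summed reductase footprints thus lay in Msrb3. Msrb3 made up 51.9% (exact 95% binomial interval 48.0 to 55.7) and 56.1% (51.4 to 60.7) of the reductase footprints in the controls. In the siRNA libraries its share was 72.3% (69.3 to 75.1) and 70.8% (68.1 to 73.4). These intervals cover counting error only and not the variation between libraries. A share of footprints also depends on the coding length of each gene. The shares restate the Msrb3 counts on which the set was selected, so they are a description and no separate result. The Msrb1 share was 38.2% and 33.3% in the controls and 20.9% and 23.5% after siRNA, while its own level differed by less than the spread between the siRNA libraries.

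**Figure D2:**
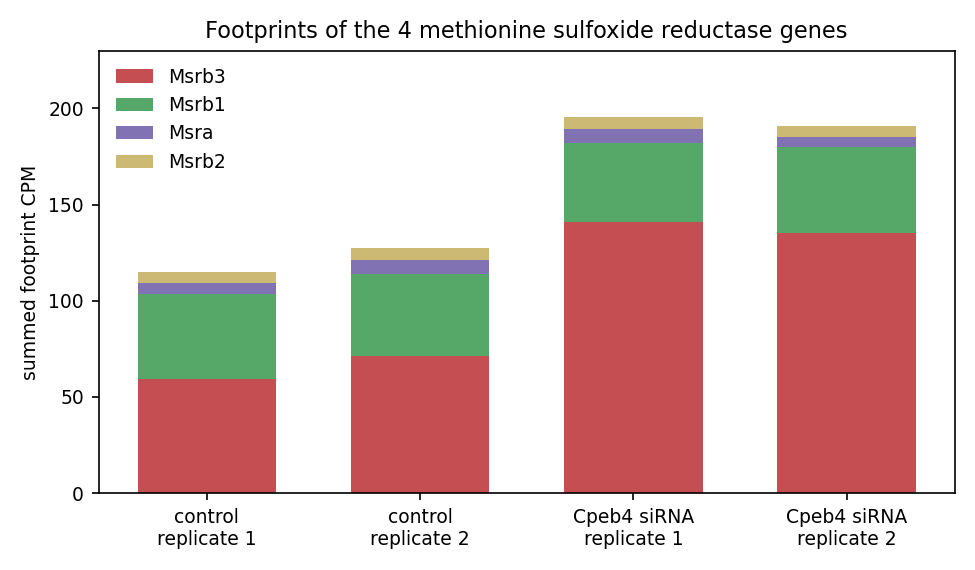
Stacked footprint levels of Msrb3, Msrb1, Msra and Msrb2 in each library, in CPM and not scaled by length. The stacks reach 115 and 128 CPM in the controls and 195 and 191 CPM after Cpeb4 siRNA, and the part above Msrb3 sums to between 54.2 and 56.0 CPM in each library.

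Neither thioredoxin passed the threshold. Txn1, the cytosolic thioredoxin, had 391 and 307 CPM in the controls and 373 and 328 CPM after siRNA. The siRNA libraries lay inside the range of the controls, and the fitted ratio was 0.982 with an interval of 0.832 to 1.16. The control libraries differed from each other by 0.35 on the log2 scale, more than the 0.03 between groups, although counting alone gives an error of only 2.09% to 3.03% at 1090 to 2293 footprints. Txn2, the mitochondrial form, had 152 and 162 CPM in the controls and 190 and 162 CPM after siRNA. At 1 decimal more, siCpeb4 replicate 2 had 162.4 CPM and control replicate 2 had 161.8 CPM, so the groups were separated by a margin far below the spread within either. The fit gave 0.14 ± 0.11 on the log2 scale, with an edgeR adjusted p of 0.596.

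The thioredoxin reductases, both selenoproteins that pass electrons from NADPH to thioredoxin, had overlapping groups. Txnrd1 had 174 and 180 CPM in the controls and 157 and 188 CPM after siRNA, with a fitted ratio of 0.956 and an interval of 0.815 to 1.12. Txnrd2, whose loss in mouse heart is known to cause cardiomyopathy, had 46.2 and 41.4 CPM in the controls and 52.6 and 40.9 CPM after siRNA. Its interval ran from 0.838 to 1.28-fold. In both genes the siRNA libraries bracketed the controls, with siCpeb4 replicate 1 below them for Txnrd1 and above them for Txnrd2.

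Txnip encodes an alpha-arrestin that binds and inhibits thioredoxin and is known to respond to glucose. It had 6696 and 4654 footprints in the controls and 6686 and 8433 after siRNA. The levels were 1142 and 1310 CPM against 1368 and 1427 CPM, so both siRNA libraries lay above both controls. The group means of 1226 and 1397 CPM were about as far apart as the control libraries were from each other. The log2 fold change was 0.16 ± 0.10 and did not pass (edgeR adjusted p = 0.483), with a 95% interval of 0.964 to 1.29-fold. Groups that do not overlap with the siRNA libraries higher were found for 3 of the 9 members, Msrb3, Txn2 and Txnip, and for 26.5% of all genes tested, while none of the 9 was lower without overlap against 19.5% of all genes.

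Replicate differences within a group show how far single libraries move these genes. For 8 of the 9 genes, the larger of the replicate differences exceeded the fitted difference between groups. The range of those larger differences was from 0.13 on the log2 scale for Msrb1 to 0.53 for Msra, the latter between siRNA libraries with 37 and 31 footprints. For Msrb3 the control replicates differed by 0.26 and the siRNA replicates by 0.06, against 1.06 between groups. As the set was selected on this contrast in the same 4 libraries, the Msrb3 comparison is a description.

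**Figure D3:**
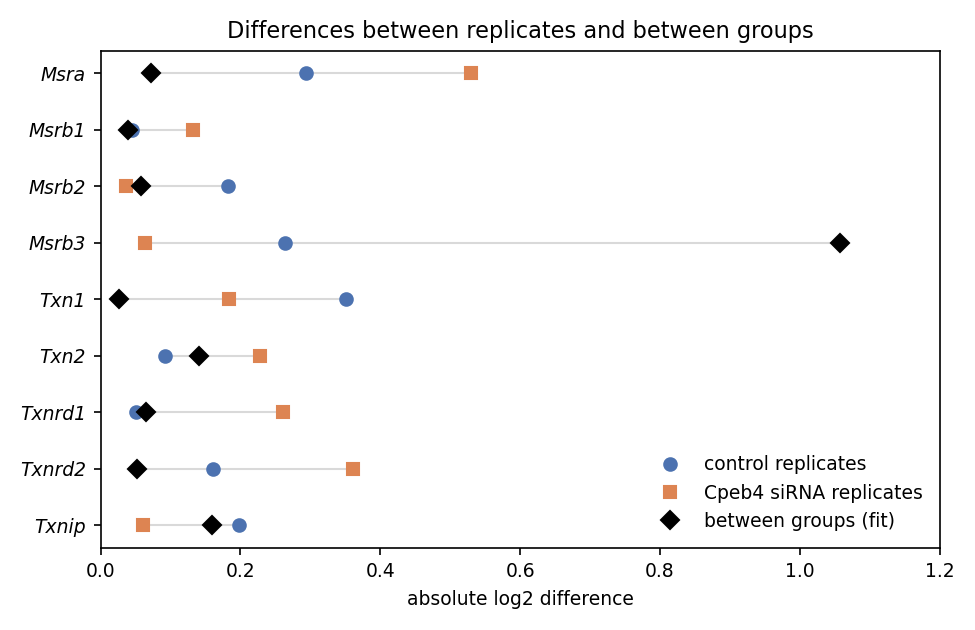
Absolute log2 difference between the control replicates (circles), between the Cpeb4 siRNA replicates (squares) and between groups in the fit (diamonds), for each of the 9 genes. The group difference is the largest of the 3 values for Msrb3, at 1.06, and lies below the larger replicate difference in the other 8.

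Companion genes of the same redox network were taken from 11 lists. Of 100 genes, 96 were found and 92 passed the low-count filter. Of these 92 genes, 1 rose and 3 fell, which is 4.35% against the 3.41% called among all genes tested. Their median log2 fold change was -0.08, and 59 were negative. Over all genes tested the median was -0.003, with quartiles of -0.176 and 0.166. Gclm, the modifier subunit of the enzyme that limits glutathione synthesis, fell from 51.7 and 56.0 CPM in the controls to 28.6 and 24.4 CPM, a log2 fold change of -1.05 ± 0.15 with an edgeR adjusted p of 0.000158. Gpx3, a secreted selenoprotein glutathione peroxidase, rose from 72.3 and 56.6 CPM to 91.2 and 103 CPM, 1.47-fold in the fit (edgeR adjusted p = 0.0156). The transketolase Tkt, of the pentose phosphate pathway, fell from 340.0 and 320 CPM to 246 and 261 CPM, or -0.41 ± 0.10 on the log2 scale, with an edgeR adjusted p of 0.0249. Sepsecs, which makes the selenocysteine-charged tRNA that selenoproteins need, fell from 17.4 and 16.0 CPM to 9.41 and 9.64 CPM, or -0.85 ± 0.22 on the log2 scale, with an edgeR adjusted p of 0.0380. In all 4 genes the groups did not overlap. Of all genes tested, 26.5% were higher and 19.5% lower after siRNA without overlap, so this adds little to the calls.

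The Gclm call held with each library left out, and the other calls did not, while their fold changes kept their direction. The adjusted p of Gpx3 was 0.054 in the DESeq2 test, and in edgeR 0.217 without control replicate 2 and 0.139 without siCpeb4 replicate 2. In those edgeR fits its log2 fold change was 0.41 and 0.47, against 0.55 with all libraries. For Tkt the edgeR adjusted p was 0.258 without control replicate 1, 0.0964 without control replicate 2 and 0.0816 without siCpeb4 replicate 1, at log2 fold changes of -0.37, -0.44 and -0.38. The Sepsecs call was lost without any one of the 4 libraries, with edgeR adjusted p from 0.0903 to 0.287, although its log2 fold change stayed between -0.79 and -0.89. It was also lost in a fit blocked on replicate (edgeR adjusted p = 0.053), with scaling to library totals (0.0539) and with libraries thinned to the smallest (0.0722).

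Among 16 genes of glutathione synthesis and use, 13 were negative, with a median log2 fold change of -0.15 against -0.003 over all genes tested. Gclm and Gpx3 were the called ones, 12.5% of this list against 3.41% of all genes tested. The lists in this paragraph are small, and no direction of a list was tested. Among 14 genes listed for the NRF2 pathway, the transcriptional response to oxidants, 11 were negative with a median of -0.18. In this list 1 gene fell, Tkt, which is 7.14% of it. Genes placed in the glutathione list, Gclm among them, were not counted again here. This list mixes targets of NRF2 with its regulators, so its median does not measure NRF2 activity, which was not tested. The NRF2 target Nqo1, a quinone reductase, had a log2 fold change of -0.41 ± 0.17 and the NRF2 competitor Bach1 one of -0.47 ± 0.20, and neither passed (edgeR adjusted p = 0.226 and 0.249). Of 6 genes of selenoprotein synthesis, 5 were negative, with a median of -0.14. Pstk, the kinase one step before Sepsecs on the same tRNA, had 23.5 and 22.5 CPM in the controls and 14.5 and 17.1 CPM after siRNA and did not pass (edgeR adjusted p = 0.112). None of the 10 other selenoproteins tested was called, and their median was -0.03 (0.001 when scaled to library totals alone), with Selenon, of the endoplasmic reticulum, at 0.36 ± 0.11 (edgeR adjusted p = 0.0750).

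With the main settings, edgeR called no gene in the other 7 lists. The 6 peroxiredoxins, which remove peroxides with thioredoxin, had a median log2 fold change of -0.04. The mitochondrial Prdx3 had one of 0.18 ± 0.10 and the cytosolic Prdx1 one of -0.28 ± 0.18. Prdx1 had 62.4 and 34.6 CPM in the controls, a spread that held both siRNA libraries at 41.7 and 42.0 CPM. Its edgeR adjusted p was 0.482 with all libraries and 0.0394 without control replicate 2. Medians were 0.06 for 10 glutaredoxins and other thioredoxin-fold genes, -0.18 for 4 superoxide dismutases and catalase, and -0.02 for 7 genes of NADPH supply (0.015 when scaled to library totals alone). They were -0.04 for 7 alpha-arrestins and regulators of Txnip and 0.06 for 9 genes of the methionine cycle. The 3 MICAL genes, whose enzymes oxidise methionines of actin that MSRB1 is known to reduce, had a median of 0.29. The number of genes with an unadjusted edgeR p under 0.05 was 0 of the peroxiredoxins and of the NADPH genes and 1 of the thioredoxin-fold genes and of the dismutases. It was 2 of the arrestin list, 3 of the methionine cycle and 2 of the MICAL genes, and 16.1% of all genes tested had such a p. Mat2b, a regulatory subunit of the enzyme that makes S-adenosylmethionine, had the smallest p in these lists (0.42 ± 0.12, edgeR adjusted p = 0.0553). It passed in edgeR with upper-quartile scaling (adjusted p = 0.0456), library totals (0.0447), robust estimation (0.0429) and no low-count filter (0.0327), and its adjusted p reached 0.33 without control replicate 1. Next came Map3k5, the kinase ASK1 that thioredoxin inhibits (-0.44 ± 0.14, edgeR adjusted p = 0.0912).

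**Figure D4:**
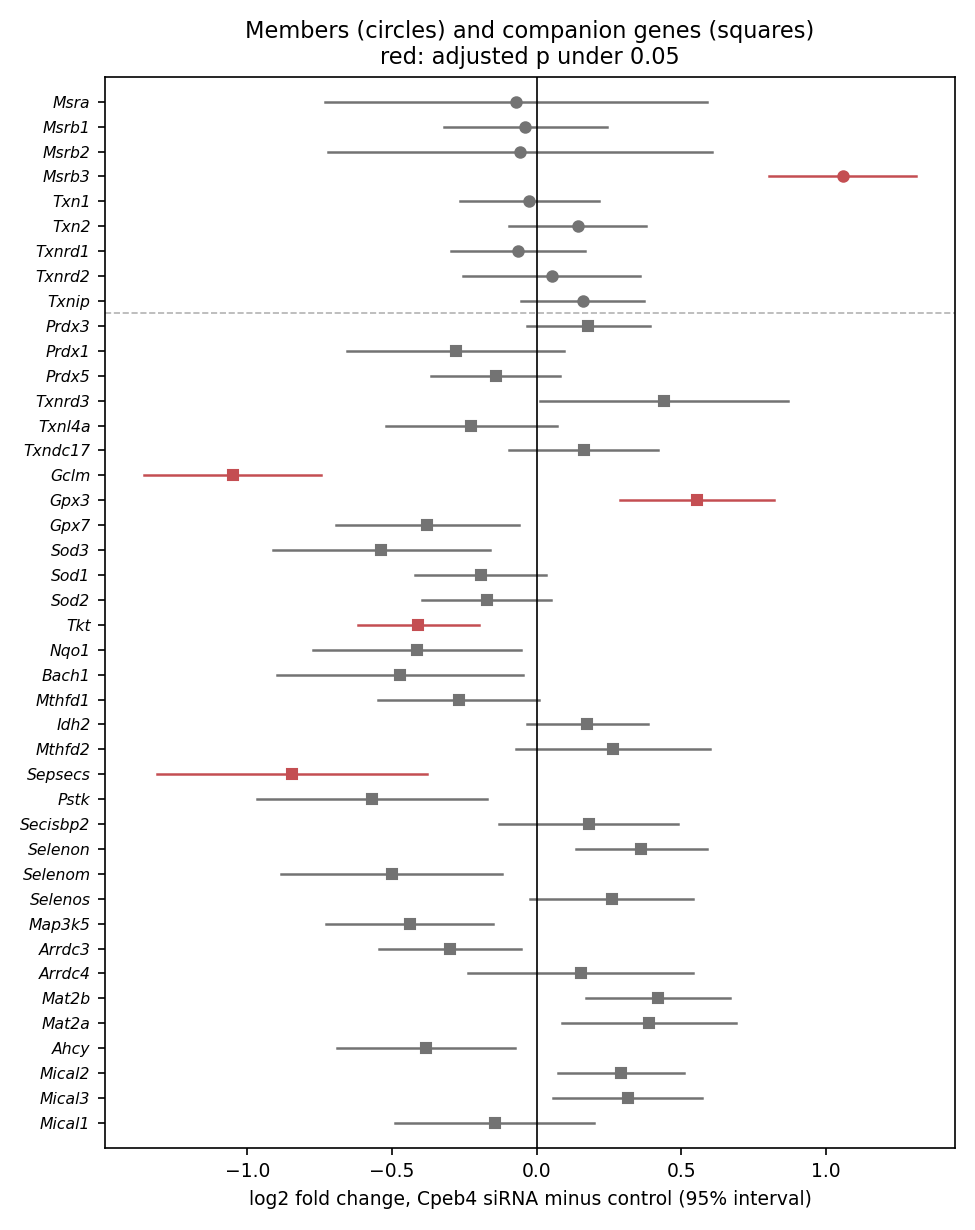
Log2 fold change (Cpeb4 siRNA minus control) with its unadjusted 95% interval for the 9 members (circles, above the dashed line) and for the companion genes of smallest p or with a call (squares). Red marks genes past an edgeR adjusted p of 0.05. Msrb3 at 1.06 and Gpx3 at 0.55 lie to the right of 0. Gclm, Tkt and Sepsecs lie to the left, at -1.05, -0.41 and -0.85. The set was selected with the Msrb3 rise known, so the mark and interval of Msrb3 are a description.

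Markers of cell types were followed beside these values. The summed CPM of 9 cardiomyocyte markers was 57290 and 61550 in the controls and 63570 and 56880 after siRNA. A further listed marker, Ttn, was not found by its symbol. The 9 found were all detected, as the cell type in the labels requires, and none was called. The 10 fibroblast markers summed to 17650 and 16010 CPM in the controls and 12080 and 12190 CPM after siRNA. Abundant genes weigh most in such a sum. Of the 9 tested, 2 were called as lower, Fn1 and Col1a1, against 1.87% called as lower among all genes tested. The median log2 fold change of these 9 was -0.25, and Col1a2 was listed at 0 in each library. Sums of 7 endothelial, 8 macrophage and leukocyte and 6 smooth muscle and pericyte markers were 162 to 197, 504 to 733 and 5520 to 5534 CPM in the controls. After siRNA they were 161 to 178, 545 to 638 and 5824 to 6212 CPM. The listed endothelial marker Pecam1 was likewise not found. The 5 epicardial markers summed to 286 and 304 CPM in the controls and 260 and 221 CPM after siRNA. No gene of these last 4 lists was called in edgeR. Msrb3 and Gpx3 moved opposite to the fibroblast sum, and Gclm, Tkt and Sepsecs moved with it, and the part of fibroblast content in these values was not tested.

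Among the genes searched, those whose pattern over the 4 libraries lay closest to that of Msrb3 were Zcchc3, Zfp36l1, Jarid2, Sik1 and Ptbp2. Closeness was the Euclidean distance between log2 CPM values centred on each gene's mean. A mean log2 CPM of at least 5 was required, which 5312 genes had. From these, genes without a symbol were left out. Symbols starting with AABR, LOC, RGD, Rn or AC and a digit were also left out. The Rn rule also removed some named genes, which were therefore not searched. The distances were 0.17, 0.19, 0.21, 0.22 and 0.25. Zfp36l1 promotes decay of mRNAs with AU-rich elements, Jarid2 is a cofactor of Polycomb complex PRC2, Sik1 is a salt-inducible kinase and Ptbp2 a splicing regulator. Zcchc3 had 23.4 and 25.3 CPM in the controls and 52.4 and 45.5 CPM after siRNA, and Sik1 28.3 and 27.6 CPM against 59.3 and 59.0 CPM. As they were picked for likeness to Msrb3 in the same 4 libraries, their fold changes are no separate result.

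Several genes of the thioredoxin system are known targets of NRF2, which binds antioxidant response elements, so the RefSeq promoter windows (build GRCr8, 250 bases before to 50 after the start) were searched for the core letters of that element. The letters were TGACNNNGC and TGAGNNNGC, on both strands. The second can hold the AP-1 letters TGAGTCA. Either was found in 27.1% of 33469 promoter windows. The set had 9 windows for 8 genes, since Txnrd1 has a pair of start sites. Msra and Txnip had no window and were not searched. A match was found in 3 of the 9 windows, those of Srxn1, Msrb2 and 1 of the Txnrd1 starts, and none in the other Txnrd1 window or in those of Msrb3, Msrb1, Txn1, Txn2 and Txnrd2. For each of these 3 genes, 1 matched stretch is shown to let the letters be compared, written 5′ to 3′ on the gene's strand with the match in capitals. The stretches lie at chr3:161064797-161064825 (plus strand), chr7:22755964-22755992 (minus strand) and chr17:86882752-86882780 (plus strand).
Srxn1: aaactcacccTGAGTCAGCgacccgacgc
Txnrd1: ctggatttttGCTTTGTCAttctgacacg
Msrb2: cccgttggtgGCAGAGTCAtggcgcgtct
Srxn1 had 3 matches, which begin 118, 17 and 5 bases before the start. The one shown is the nearest and the only one of them with the AP-1 letters. The Txnrd1 match begins 78 bases before it, and the Msrb2 match lies 10 bases past it. The footprint values of Txnrd1 and Msrb2 are those given above, and a match describes letters only.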

How the data were processed

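The deposited files hold raw counts of ribosome footprints per Ensembl gene, with no normalisation. Tools named in the submitters' processing notes are HTSeq 0.12, STAR 2.7 and Bowtie2, with the rat build Rnor_6.0 and no role for each. No source used here gives the strand setting, so overlapping and antisense genes are uncertain, as are genes with near-identical copies. File names state uniquely mapped reads of 29 to 34 nt, and of 29 to 33 nt in siCpeb4 replicate 2. Per the labels, the footprints came from polysome fractions treated with RNase I. HTSeq summary rows were left out. Reads without a feature were 4.42% to 4.63% of a library.

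Counts were tested with edgeR 4.0.16 in R 4.3.3 (quasi-likelihood, TMM, filterByExpr with a minimum count of 10, two-sided, Benjamini-Hochberg over 11335 genes). Fold changes compare Cpeb4 siRNA with control. The alternatives used limma 3.58.1 and DESeq2 1.42.0 as well. On simulated counts for this comparison (11277 genes), 74% of genes changed 2-fold and 44% of those changed 1.5-fold were recovered. Of genes changed 1.3-fold, only 2% were recovered, so changes of that size would mostly be missed. The simulation changed 50 genes per fold, drawn over all levels. It gave every gene the same variation between libraries beyond counting error (8.77%). Recovery in the real data, or for sparse genes such as Msra and Msrb2, may therefore differ. The members, lists and tests were chosen with earlier results of these data known. Named genes were the members, Cpeb4, called companion genes and up to 3 of smallest p per list, and the 5 nearest to Msrb3. Fn1 and Col1a1, 2 called marker genes, and Col1a2 were named after their values were seen. Ttn and Pecam1 are named as markers that were not found. Levels per coding length were not computed, since no coding lengths were used here.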

Additional observations from a re-analysis of the deposited data

How the results depend on the processing

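Over the 17 other settings tried, the Msrb3 log2 fold change ran from 0.91 to 1.19, a description since the set was selected on it, and no other member was called in any of them. All genes called, 386 with the main settings, numbered 192 in DESeq2, 606 without the low-count filter and 629 at an adjusted p of 0.10, and 212 to 318 with 1 library left out (212 without control replicate 1). Called companion genes, 4 with the main settings, numbered 2 in DESeq2, 7 at an adjusted p of 0.10 and 2 with any library left out. Scaling to library totals split the calls into 185 higher and 163 lower, against 174 and 212. The sign of the Txn1 log2 fold change turned with library totals (0.002), as did the medians of the 9 members (0.002), the NADPH genes (0.015) and the other selenoproteins (0.001). With 1 library left out, small log2 fold changes turned sign: they ran from -0.351 to 0.2 for Msra, -0.095 to 0.014 for Msrb1, -0.171 to 0.031 for Msrb2, -0.177 to 0.153 for Txn1, -0.188 to 0.05 for Txnrd1, -0.145 to 0.239 for Txnrd2 and -0.596 to 0.234 for Prdx1. The cause was not tested. With the replicate number as a block 403 genes were called, and Sepsecs was not (edgeR adjusted p = 0.053). The replicate differences of the groups correlated at -0.11 across genes, and a crossed pairing, chosen after seeing the data, called 481. A library left out leaves 1 in its group, which is assumed to vary like the other group. Levels per coding length were not run. At 22 to 37 footprints per library, Msra and Msrb2 were limited by depth. DESeq2 gave no adjusted p for Msra, Msrb2, Sepsecs, Bach1, Pstk, Txnrd3 or Arrdc4, so each was assessed in 16 of the 17 other settings. The absence of Sepsecs from the DESeq2 calls is therefore no test result.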
